A study of Mus musculus with 6 samples.

Results

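The cytosolic ribosomal protein genes encode the proteins of the cytoplasmic ribosome. They were chosen by symbol, as mouse genes named Rpl or Rps with a number plus Rpsa, Rplp0, Rplp1 and Rplp2, leaving out symbols with the pseudogene suffix -ps, the S6 kinases and 7 genes annotated with a pseudogene biotype. Of 387 symbols that matched, 86 remained, out of 53379 genes in the count tables. They comprised 77 canonical ribosomal proteins (46 of the large and 31 of the small subunit), 7 paralogs and 2 genes for associated factors, Rpl7l1 and Rps19bp1. Fau and Rack1 encode ribosomal proteins under other symbols and were read beside them.

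RNA was sequenced from adult intestinal stem cells of the C57BL/6 strain; crypts were taken from the proximal small bowel and their Lgr5-EGFPhi cells were sorted. The 3 libraries labelled Klf5-KO came from mice with Lgr5-EGFP-IRES-CreERT2, Rosa-tdTomato and Klf5fl/fl, and the 3 libraries labelled control from mice with Lgr5-EGFP-IRES-CreERT2 and Rosa-tdTomato alone. Both genotypes carried the Cre, which the Lgr5 locus drives and tamoxifen activates, and both were injected with tamoxifen, 1 mg a day for 5 days, so the controls shared Cre activity, the reporters and the drug. Klf5, a Krüppel-like transcription factor of crypt epithelium, was the gene targeted. The comparison addressed what loss of Klf5 does to the transcriptome of these cells; the age of the mice and whether each library came from a separate mouse were not stated. Xist, the RNA of the inactive X chromosome, had 2600, 2404 and 2.20 CPM in libraries labelled Klf5-KO, against 3.52, 2354 and 1739 CPM in controls, so each group held RNA of both sexes and of more than 1 mouse. The p-values reflect only how far these libraries varied, and part of that may be technical.

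Each cytoplasmic ribosome is built from a fixed set of ribosomal proteins bound to ribosomal RNA, in a large subunit that joins amino acids and a small subunit that reads the mRNA, and the genes are known for abundant and coordinated expression. Their mRNAs begin with a C followed by further pyrimidines, the 5′ terminal oligopyrimidine (TOP) motif, through which mTORC1 signalling sets their translation. Fast-dividing cells such as crypt stem cells need new ribosomes at every division, and Myc is a well-known activator of the genes involved.

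The labels were checked first against Klf5 itself. Klf5 had 880, 918 and 877 CPM (counts scaled by library size with TMM factors) in the libraries labelled Klf5-KO, against 480, 512 and 547 CPM in the control libraries. It was thus higher in all 3 libraries labelled Klf5-KO (log2 fold change 0.80, SE 0.10, adjusted p = 0.000632 by edgeR's quasi-likelihood test with Benjamini-Hochberg adjustment). That goes against the label, although a count over all exons cannot separate floxed exons from the rest, and every direction below is that of libraries labelled Klf5-KO over libraries labelled control. Depth was 61563625 to 77666540 counts per library. Of 6 stem cell markers 5 fell in libraries labelled Klf5-KO (Ascl2, Axin2, Smoc2, Olfm4 and Lgr5), and the list summed to 3810 to 5252 CPM there, against 8018 to 11080 CPM in controls. Of the 6 enterocyte markers 3 rose (Sis, Apob, Fabp1; 1227 to 2233 against 576 to 767 CPM summed) and of the 6 tuft markers 3 rose (118 to 214 against 80.7 to 102 CPM). Goblet markers summed to 996 to 1339 CPM in libraries labelled Klf5-KO, against 2078 to 2551 CPM in controls, with 3 of 6 lower, and enteroendocrine markers to 73.3 to 83.2, against 132 to 274 CPM, with 5 of 6 lower. No Paneth marker was called (6604 to 8387 CPM, against 1232, 1445 and 14300 CPM in the controls), and none of 4 tested immune or 1 tested erythrocyte markers was; of 3 tested stromal and endothelial markers Col1a2 rose at a level below 1 CPM. The immune list summed to 22.5 to 24.3 CPM, against 18.8 to 33.0 CPM, and the stromal list to 1.84 to 2.54, against 1.62 to 2.92 CPM. Transcripts of the mitochondrial genome took 3.00 to 3.36% of counts in libraries labelled Klf5-KO, against 1.97 to 2.69% in controls. The part of these cell mixtures and RNA shares in the values below was not tested, and in bulk RNA fewer cells of a type and less RNA per cell cannot be told apart.

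Among the 77 canonical ribosomal protein genes 4 fell in libraries labelled Klf5-KO (Rpl4, Rpsa, Rpl3 and Rps4x), none rose and 73 were not called at an adjusted p of 0.05. The share that fell, 5.19%, was smaller than that of all 19339 tested genes, of which 12.5% were lower and 25.8% called in either direction. The list leaned below 0: 67 of the 77 log2 fold changes were below 0 (87.0%, against 50.9% of all tested genes), and their median was -0.12, a change in level of -8.2%, against -0.01 for all tested genes. The middle of the list was narrow, with quartiles of -0.20 and -0.07, and 57 of the 77 lay within 0.2 of 0 on the log2 scale. The median SE of a member was 0.11, about the size of the shift, and in 33 members the SE exceeded the fold change. At an unadjusted p of 0.05, 15 of the 77 members were lower and 1 was higher. Among all 19339 tested genes 7369 passed that p, 3617 of them lower. The members' share of lower genes was thus near the background, and few members were higher. In 16 members, or 20.8%, every library labelled Klf5-KO lay below every control library, against 21% of all tested genes, so separation of the groups was no more frequent than the background. Leaving out single libraries changed the count of lower members to between 0 and 4: it was 0 without replicate 1 or replicate 2 of Klf5-KO or without control replicate 2, and 1 without Klf5-KO replicate 3 or control replicate 3.

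**Figure D1:**
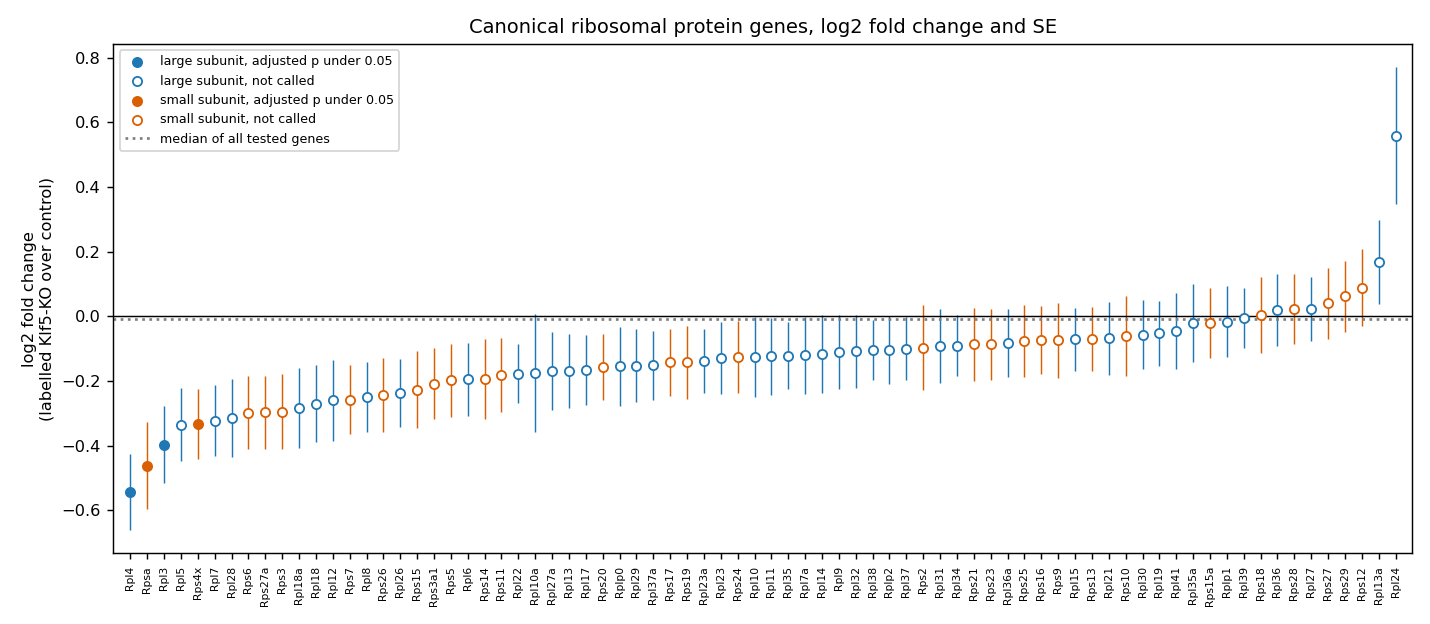
Canonical genes, all but 1 of the 77, are ordered along the horizontal axis by log2 fold change (vertical axis, libraries labelled Klf5-KO over control), with bars for the SE; blue marks the large and orange the small subunit, and filled points have an adjusted p under 0.05. The 67 values below 0 form a shallow slope, with the 4 called genes among the lowest 5 and Rpl24 alone at 0.56.

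Rpl4 had the largest fall. It encodes a large-subunit protein that lines the tunnel through which the growing peptide leaves the ribosome. Its levels were 1530, 1600 and 1568 CPM in libraries labelled Klf5-KO, against 2228, 2514 and 2109 CPM in control libraries. The groups did not overlap, and the 3 libraries labelled Klf5-KO lay within a narrow band (1566 ± 35 CPM, against 2284 ± 208 CPM, SD, n = 3 each). By edgeR the fall was -0.54 on the log2 scale (SE 0.12, adjusted p = 0.00929).

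Rpl3, whose product reaches towards the peptidyl transferase centre, had 1218, 1294 and 1195 CPM in libraries labelled Klf5-KO, against 1473, 1812 and 1599 CPM in controls. The groups were again apart, and control replicate 2 was the highest library (log2 fold change -0.40, SE 0.12, edgeR adjusted p = 0.0362). In its transcript 67.1% of 50-base words also occur in other annotated genes, so its count is uncertain.

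On the small subunit, Rpsa, which also serves as a laminin receptor precursor, had 795, 991 and 983 CPM in libraries labelled Klf5-KO, against 1122, 1415 and 1278 CPM in controls. Replicate 1 was the lowest library in each group, and the groups did not overlap (log2 fold change -0.46, SE 0.13, edgeR adjusted p = 0.0331). Rps4x, the X-linked gene of a small-subunit protein, had 782, 886 and 880 CPM in libraries labelled Klf5-KO, against 1021, 1131 and 1059 CPM in controls. It was separated by group as well, with a log2 fold change of -0.33 (SE 0.11, edgeR adjusted p = 0.0477). Of its 50-base words 72.2% occur in other genes. Rpl4 kept its call in 18 of 21 alternative settings, Rpl3 and Rpsa in 13 each and Rps4x in 10. Rpl4 lost it without Klf5-KO replicate 1 or 2 or control replicate 2, Rpl3 and Rpsa without any 1 library except control replicate 1, and Rps4x without any 1 of the 6.

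**Figure D2:**
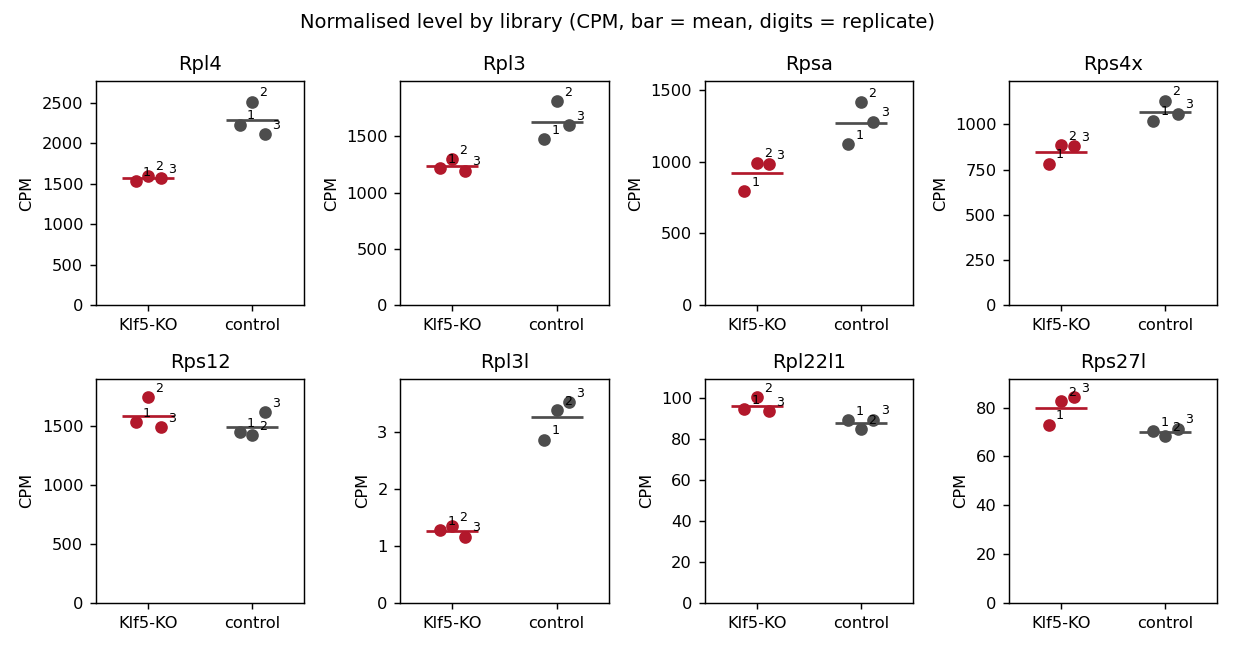
CPM (vertical axes, from 0) in each library for the 4 called canonical genes, Rps12 and 3 paralogs; red points are libraries labelled Klf5-KO, grey points controls, bars are group means and digits are replicate numbers. The 4 called genes and Rpl3l have all red points under all grey ones, Rps12 overlaps, and Rpl22l1 and Rps27l lie higher without passing the test.

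Just outside the threshold lay Rpl5 and Rpl7. Rpl5 binds the 5S ribosomal RNA together with Rpl11, and the complex can restrain Mdm2, the ubiquitin ligase of p53. Rpl5 had 389, 464 and 458 CPM in libraries labelled Klf5-KO, against 508, 608 and 536 CPM in controls (log2 fold change -0.33, edgeR adjusted p = 0.0562). Its partner Rpl11 had overlapping groups (563, 650 and 605, against 583, 654 and 745 CPM) and a log2 fold change of -0.12 (SE 0.12). Rpl7 had 821, 945 and 938 CPM in libraries labelled Klf5-KO, against 1072, 1175 and 1135 CPM in controls (-0.32, edgeR adjusted p = 0.0561). Rps6, the substrate of the S6 kinases (-0.30), Rps27a, made as a fusion with ubiquitin (-0.30), Rps3, which lies at the mRNA entry (-0.30), and Rpl28 (-0.31) followed, each with groups that did not overlap and an edgeR adjusted p between 0.0829 and 0.0899. Under DESeq2 these 6 genes and Rpl8 passed with the 4 called ones, which gave 11 lower members, where 13.6% of all tested genes were lower.

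At the other end, Rpl24 had the highest fold change, at a very low count. It had 1.87, 2.27 and 1.82 CPM in libraries labelled Klf5-KO, against 1.20, 1.32 and 1.53 CPM in controls (log2 fold change 0.56, SE 0.21, edgeR adjusted p = 0.0821). Rpl24 shares 47.0% of its exon bases with Gm28037 on the same strand, and Gm28037 had a count of 0 in every library. Rpl13a, with 44.5 ± 7.0 CPM in libraries labelled Klf5-KO and 39.6 ± 4.5 CPM in controls, shares 35.4% of its exon bases with other genes including Gm45713, also at 0. These were the only 2 canonical genes under 100 CPM in both groups, while the other 75 were at 167 CPM or more in controls, and the counting command set no option for reads that lie over several genes, so the levels of these 2 are uncertain. Rps12, a small-subunit protein whose exons share 13.7% of their bases with small RNA genes on the strand, was the next highest canonical member (1532, 1741 and 1486, against 1443, 1419 and 1612 CPM; log2 fold change 0.09, SE 0.12), and its groups overlapped. Rps29 (0.06) and Rps27 (0.04), both of the small subunit, came next and overlapped too.

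The P-stalk recruits the elongation factors that hydrolyse GTP during translation. Rplp0 had 1913, 2255 and 1929 CPM in libraries labelled Klf5-KO, against 2150, 2235 and 2400 CPM in controls, a log2 fold change of -0.15 (SE 0.12) with overlapping groups. Rplp1 and Rplp2 had log2 fold changes of -0.02 and -0.10, also overlapping.

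Both subunits leaned alike. The median log2 fold change was -0.12 over the 46 large-subunit genes, 42 of them below 0 and 2 lower by the test, and -0.13 over the 31 small-subunit genes, 25 of them below 0 and 2 lower. Canonical genes took 5.02, 5.44 and 5.12% of all counts in libraries labelled Klf5-KO, against 5.47, 5.87 and 6.27% in controls. The means were 5.19 ± 0.22% and 5.87 ± 0.40% (SD, n = 3 each), a change of -11.5% in the share, and the groups were apart only by the small distance between Klf5-KO replicate 2 and control replicate 1. Summed CPM, which is scaled by TMM factors, overlapped between the groups (49107, 56296 and 51060 in libraries labelled Klf5-KO, against 54280, 59161 and 62251 in controls). The small-subunit share also overlapped (2.19, 2.38 and 2.24%, against 2.34, 2.49 and 2.72%), and the large-subunit share did not (2.83, 3.06 and 2.88%, against 3.13, 3.38 and 3.55%).

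**Figure D3:**
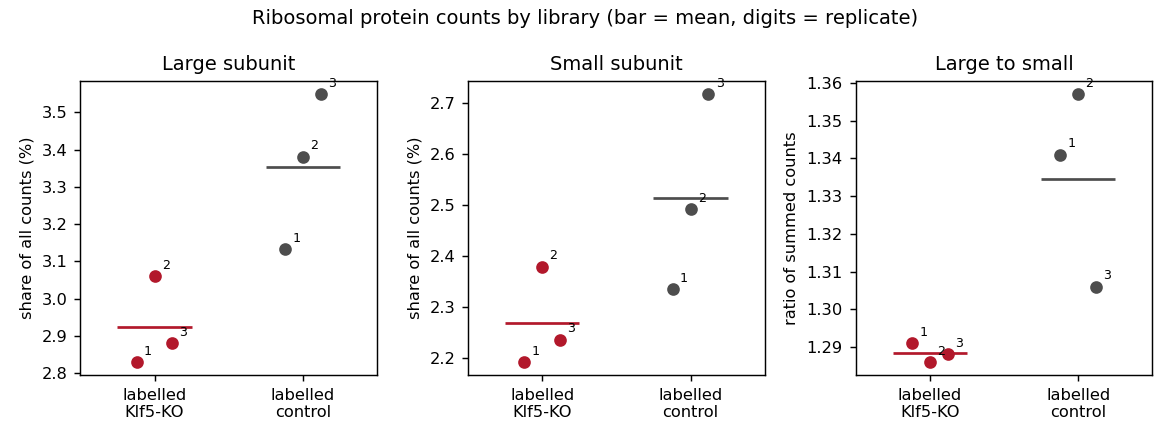
Share of all counts (%) taken by large-subunit (left) and small-subunit genes (middle), and the ratio of their summed counts (right), with 1 point per library, bars for group means and digits for replicates; axes do not start at 0. The ratio is 1.29 in each library labelled Klf5-KO, below the 1.31 to 1.36 of the controls.

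The ratio of large to small subunit counts was 1.291, 1.286 and 1.288 in libraries labelled Klf5-KO, against 1.341, 1.357 and 1.306 in controls. It changed by -3.46% on average, and the groups did not overlap. Without Rpl3 and Rpl4, the called genes of the large subunit, which were chosen for their fall, the ratio was 1.163, 1.169 and 1.164 in libraries labelled Klf5-KO, against 1.182, 1.184 and 1.169 in controls, so that the groups touched, and the change was -1.1%. Without all 4 called genes, of both subunits, it was 1.255, 1.265 and 1.27, against 1.302, 1.318 and 1.279, and the groups stayed apart.

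Within each group the members varied together from library to library. In Klf5-KO replicate 2 all canonical genes (100%) lay above their group mean and in replicate 1 only 7.79% did; among controls, 92.2% did in replicate 3 and 0% in replicate 1. The median deviations from the group mean were -0.10, 0.11 and -0.01 on the log2 scale in libraries labelled Klf5-KO and -0.11, -0.01 and 0.11 in controls, while the medians of all genes stayed within 0.0415 of 0. The within-group spread was thus as wide as the median difference between groups, -0.12. The median shift was -0.06 without Klf5-KO replicate 1 and -0.07 without control replicate 3, and -0.17 without control replicate 1. Control replicate 3, the library highest in these genes, was also the highest control in Paneth markers (14300 CPM, against 1232 and 1445 CPM in the other controls), and Klf5-KO replicate 2 had the highest share of rRNA-like counts (18.3%, against 13.5 and 16.0% in the other libraries labelled Klf5-KO). Whether these differences bear on the members was not tested.

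Mitochondrial ribosomal proteins, which build the separate ribosome inside mitochondria, served as the nearest comparison. Of 77 tested genes 4 fell (Mrpl24, Mrps31, Mrps5 and Mrpl44) and 2 rose (Mrpl33 and Mrpl27), or 5.19% and 2.60%, against 12.5% and 13.3% of all tested genes. The median log2 fold change was -0.01, and 40 lay below 0. The number lower was 1 without Klf5-KO replicate 1, Klf5-KO replicate 2 or control replicate 2 and 6 without control replicate 3; the number higher was 0 without Klf5-KO replicate 2 or control replicate 2, 5 without control replicate 3 and 1 without any other library. Mrpl24, for example, had 48.3, 49.7 and 55.5 CPM in libraries labelled Klf5-KO, against 70.3, 74.2 and 69.2 CPM in controls (log2 fold change -0.48, SE 0.09, edgeR adjusted p = 0.004), and Mrpl33 had 22.2, 26.4 and 23.2 CPM against 18.0, 17.9 and 18.3 CPM. Their summed level was 2642, 2905 and 2834 CPM, against 2830, 2884 and 2914 CPM, and overlapped. The 268 other protein-coding genes at 315 CPM or more, the 10th percentile of the canonical members, also had a median of -0.01, with 43 lower (16%) and 37 higher (13.8%).

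**Figure D4:**
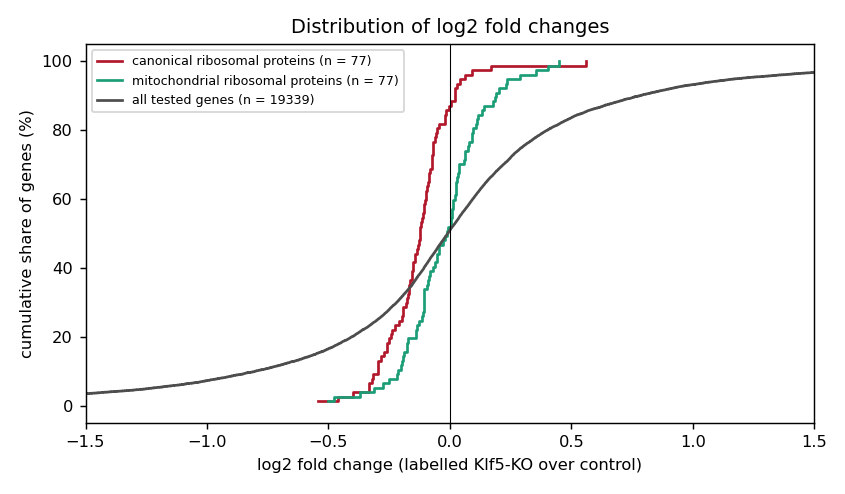
Cumulative share of genes (vertical axis, %) against log2 fold change (horizontal axis, libraries labelled Klf5-KO over control) for 77 canonical cytosolic ribosomal proteins, 77 mitochondrial ribosomal proteins and all 19339 tested genes. The cytosolic curve is steep and lies left of 0, with 87.0% of genes below 0, where the mitochondrial curve has 51.9% and all genes 50.9%.

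Within the canonical list the fold change went with the length of the encoded protein. The 36 proteins under 150 amino acids had a median log2 fold change of -0.09 and no call, the 29 of 150 up to 250 amino acids had -0.14 and no call, and the 12 of 250 or more had -0.29, all 12 below 0 and all 4 calls among them. Across the 77 genes Pearson's r with log2 length was -0.47 and Spearman's rho -0.53, as a description of genes that share the same 6 libraries. Other genes showed a gradient of the same sign: the medians in the same 3 length classes were 0.06, 0.02 and -0.13 for mitochondrial ribosomal proteins and 0.11, 0.02 and -0.05 for all tested protein-coding genes. At 250 amino acids or more, 24 of 27 mitochondrial ribosomal proteins lay below 0 and 3 fell. Of all 11125 tested protein-coding genes of that length, 6176 lay below 0 and 1712 fell. For single libraries, each member's log2 level was taken as a deviation from its own mean over the 6 libraries. The median deviation of members of 250 amino acids or more, less that of members under 150, was then formed. It was -0.05, -0.11 and -0.08 in libraries labelled Klf5-KO, and 0.09, 0.18 and 0.00 in controls. Because each gene is centred, these values compare libraries and not the levels of long and short members. Control replicate 3 was the control nearest to the libraries labelled Klf5-KO by that measure. With gene length and GC content as correction terms, 12 canonical members were lower in place of 4, and Rpl3 was no longer among them. Of all tested genes 13.9% were lower there. The median of the 77 was -0.16 and that of all tested genes -0.04. The difference between these medians was -0.11, the same as without the correction. Sharing of sequence with other genes did not order the members in the same way: the median was -0.15 for 14 genes with under 20% of shared 50-base words, -0.11 for 36 genes with 20 to 50% and -0.12 for 27 genes with over 50%. Counts of the pseudogene symbols, where such reads could also be placed, summed to 381, 414 and 433 CPM in libraries labelled Klf5-KO, against 440, 411 and 457 CPM in controls, under 1% of the members' own sum.

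**Figure D5:**
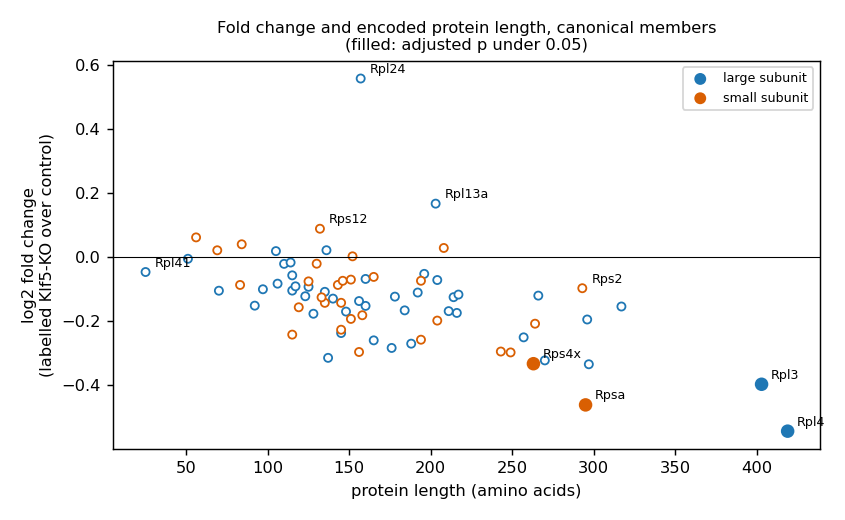
Log2 fold change (vertical axis, libraries labelled Klf5-KO over control) against protein length in amino acids (horizontal axis) for the 77 canonical genes; blue is the large and orange the small subunit, and filled points have an adjusted p under 0.05. All 12 proteins of 250 amino acids or more lie below 0, with Rpl4 and Rpl3 longest and among the lowest 3.

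Levels per length, in TPM (counts divided by exon length and scaled to the same total in each library), put Rplp1 highest on the large subunit (4084 ± 171 TPM in libraries labelled Klf5-KO, 4424 ± 154 TPM in controls), followed by Rpl36 (3349 ± 270 and 3535 ± 94 TPM) and Rplp0 (2934 ± 188 and 3500 ± 157 TPM). Rpl36 and Rplp0 did not differ beyond their spread in controls, nor did Rps2 and Rps3a1 below. On the small subunit Rps15 was highest (3176 ± 221 and 3979 ± 89 TPM), then Rps2 (2550 ± 155 and 2914 ± 87 TPM) and Rps3a1 (2206 ± 99 and 2732 ± 184 TPM). The median member's level was 841 TPM in libraries labelled Klf5-KO and 1022 TPM in controls. TPM was scaled to a total of counts per length and not by TMM factors. Those factors averaged 0.998 in libraries labelled Klf5-KO and 1.003 in controls. With total counts in place of them the median log2 fold change of the members was -0.13, against -0.12 with them. TPM differences between groups can depart from those of the edgeR fit, and why they did here was not tested. By the edgeR fit with TMM factors the median change was -8.2%. Rps12, for example, changed by 6.36% in the fit but had 1875 TPM in libraries labelled Klf5-KO and 1888 TPM in controls. The order depends on the length used. With the principal transcript in place of all annotated exons, Rps12 led (5162 and 5140 TPM), and in controls Rpl13 entered the first 3 of the large subunit (2785 TPM in libraries labelled Klf5-KO, where it was behind Rpl36, and 3318 TPM in controls), as the exons annotated for both genes together are longer than that transcript.

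The TOP motif lies at the start of the mRNA. The sequence around the RefSeq start (GRCm38.p6) is therefore shown for the called members with an entry, Rpl4, Rpsa and Rps4x. It is also shown for 6 uncalled members described above. Each window runs from 10 bases before the annotated start to 20 bases from it. Capitals mark the run of a C followed by at least 4 C or T that begins within 5 bases of the start. Of the uncalled members, Rps27 and Rplp2 hold a run in that position and Rps12, Rplp0, Rpl5 and Rpl11 do not. Runs that begin further in, as in the windows of Rps12, Rplp0 and Rpl11, are not marked.
Rpl4 (chr9:64173377-64173406, plus strand): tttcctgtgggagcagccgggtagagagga
Rpsa (chr9:120127756-120127785, plus strand): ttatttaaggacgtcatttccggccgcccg
Rps4x (chrX:102189372-102189401, minus strand): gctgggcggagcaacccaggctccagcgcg
Rps27 (chr3:90213629-90213658, minus strand): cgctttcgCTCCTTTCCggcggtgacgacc
Rplp2 (chr7:141447641-141447670, plus strand): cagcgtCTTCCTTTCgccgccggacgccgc
Rps12 (chr10:23787190-23787219, minus strand): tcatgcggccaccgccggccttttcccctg
Rplp0 (chr5:115559457-115559486, plus strand): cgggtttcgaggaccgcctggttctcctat
Rpl5 (chr5:107900518-107900547, plus strand): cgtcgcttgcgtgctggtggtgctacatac
Rpl11 (chr4:136053374-136053403, minus strand): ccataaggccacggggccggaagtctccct

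Such a run was found on the sense strand at 29 of 67 annotated starts of the 57 canonical genes with an entry (43.3%), with lengths of 5 to 20 bases and a median of 8, against 18.3% of 32851 starts of all genes and 22.7% of those of mitochondrial ribosomal proteins. The starts of Rpl4, Rpsa and Rps4x had none in that position, and neither had those of Rps12, Rplp0, Rpl5 and Rpl11. That says only that these letters are not within reach of the annotated base. Both strands of the 300 bases around each start (250 before, 50 after) were searched for other motifs. GGGNGNGG, a GC-rich motif, occurred in 59.7% of the members' promoters and 49.5% of all promoters. CACCC, which can overlap longer GC boxes, was in 53.7% and 57.5%. CCGGAAG, the core of ETS sites, was in 37.3% of the members' promoters against 8.86% of all, and in 34.7% of those of mitochondrial ribosomal proteins. Of the 3 called promoters, all 3 held GGGNGNGG, none CACCC and 1 CCGGAAG, numbers too few to set against these shares. These matches describe letters and not binding.

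The paralogs were set beside the genes they resemble. Rpl3l, a form of Rpl3 known from heart and skeletal muscle, fell in libraries labelled Klf5-KO at a low level. It had 87, 86 and 84 counts there, against 208, 260 and 218 counts in controls, or 1.27, 1.34 and 1.16 against 2.86, 3.37 and 3.52 CPM. The groups were well apart (log2 fold change -1.37, SE 0.19, edgeR adjusted p = 0.00109), and the call passed in all 21 alternative settings. None of its 50-base words occurs in another gene.

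The other paralogs were not called. Rps27l, a form of Rps27 induced by p53, had 73.1, 82.6 and 84.3 CPM in libraries labelled Klf5-KO, against 70.4, 68.4 and 71.5 CPM in controls; its log2 fold change of 0.19 (SE 0.08, edgeR adjusted p = 0.131) did not pass although the groups did not overlap, and it was -0.13 with the length and GC correction. Rpl22l1, a paralog of Rpl22, had 94.7, 101 and 93.7 CPM, against 89.1, 85.0 and 89.5 CPM, likewise without overlap (0.13, edgeR adjusted p = 0.237; -0.07 with that correction), while Rpl22 itself was at -0.18. Rpl36al, at 1.39 against 1.13 CPM, shares 24.5% of its exon bases with another gene, and Rps27rt had overlapping groups. Rpl10l had 0, 0 and 2 counts in libraries labelled Klf5-KO and 0 in all controls, and Rpl39l had 0 in every library, so neither was tested; both are known from testis. Rps19bp1, which binds Rps19, was level between the groups (25.1 and 25.1 CPM), and Rpl7l1 had a log2 fold change of -0.12.

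Of the ribosomal proteins under other symbols, Rack1, a scaffold on the head of the small subunit, had 1003, 1145 and 1030 CPM in libraries labelled Klf5-KO, against 1164, 1236 and 1342 CPM in controls. The groups did not overlap, yet the log2 fold change of -0.24 did not pass the test (SE 0.11, edgeR adjusted p = 0.158). Fau, whose product is cut into a ubiquitin-like protein and a small-subunit protein, was at -0.03.

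Among 21 other mRNAs known for a TOP motif, which encode elongation and initiation factors and a few others, 7 fell (33.3%, against 12.5% of all tested genes) and none rose, with a median log2 fold change of -0.20. Eef2, the factor that moves the ribosome along the mRNA, had 2653, 2773 and 2818 CPM in libraries labelled Klf5-KO, against 3489, 4426 and 3983 CPM in controls, with no overlap (log2 fold change -0.53, SE 0.13, edgeR adjusted p = 0.0178). Eif4b (-0.49), a helicase cofactor of initiation, Nap1l1 (-0.54), a histone chaperone, and Eef1g (-0.47), Eef1b2 (-0.33), Eif3l (-0.29) and Pabpc1 (-0.47) fell as well. None of the 7 was called lower without Klf5-KO replicate 1, without Klf5-KO replicate 2 or without control replicate 2; without Klf5-KO replicate 3 the number lower in the list was 3, and 2 of the 21 rose without control replicate 3. Eef1a1, the most abundant of the list, had overlapping groups (-0.21, edgeR adjusted p = 0.319).

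Other translation factors, 33 genes, were centred at 0.00, with 4 lower (12.1%, near the 12.5% of all tested genes) and 1 higher. The number lower was 2 without Klf5-KO replicate 1 or 3 and 7 without control replicate 3, and the number higher was 0 without Klf5-KO replicate 1 or control replicate 2 and 2 without control replicate 1. Eef2k, the kinase that inhibits Eef2, fell (40.6 against 57.7 CPM, log2 fold change -0.51, edgeR adjusted p = 0.0065), as did Eif2b1 (-0.46), Eif3d (-0.34) and Eif3m (-0.29). Eif4a2, a helicase of initiation, rose (359 against 284 CPM, log2 fold change 0.34).

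In the list of mTORC1 and Myc regulators, 7 of 26 genes fell (26.9%, against 12.5% of all tested genes) and 2 rose (7.69%, against 13.3%). The number that rose was 1 without any 1 library except control replicate 3, and 1 with upper-quartile scaling, with total counts only, with a filter at 1 CPM, at a threshold of 0.01 and with sex as a covariate. The 3 Myc family members were all lower. Myc had 141, 182 and 177 CPM in libraries labelled Klf5-KO, against 271, 295 and 255 CPM in controls, with no overlap (log2 fold change -0.72, SE 0.11, edgeR adjusted p = 0.00215). Mycl had 28.7 to 37.7, against 82.9 to 102 CPM (-1.56), and Mycn 3.48 to 4.30, against 10.4 to 22.7 CPM (-1.97). Rragd, a Rag GTPase that brings mTORC1 to the lysosome, fell most (6.53 to 10.7, against 38.1 to 42.3 CPM; log2 fold change -2.17, edgeR adjusted p = 4.63e-05). Sesn3 (-1.23) and Deptor (-0.63), both inhibitors of mTORC1 signalling, and Eif4ebp2 (-0.54), which represses cap-dependent initiation, fell too. Eif4ebp3 (1.86), a relative of the last, rose at a low level, and Rheb (0.28), the activator of mTORC1, rose (60.7 against 49.9 CPM).

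The chaperones and importins of ribosomal proteins had a median near that of the members (-0.12). Of these 16 genes 14 lay below 0 (87.5%, against 50.9% of all tested genes). Only Ipo5, an importin, was called lower (6.25%, against 12.5% of all tested genes). It had 177 against 251 CPM (log2 fold change -0.51, edgeR adjusted p = 0.0232). It lost that call on leaving out any 1 of control replicates 1 and 2 or any library labelled Klf5-KO. The number lower in that list was 5 without control replicate 3 and 3 with the length and GC correction. Of 14 genes of the p53 list, which answers to free Rpl5 and Rpl11 through Mdm2, 4 fell (Phlda3, Trp53, Eda2r and Ccng1; 28.6%, against 12.5% of all tested genes) and 1 rose (Pmaip1). Without Klf5-KO replicate 1 or control replicate 2 only 1 fell, and without Klf5-KO replicate 2 it was 2; none rose without Klf5-KO replicate 1, Klf5-KO replicate 3 or control replicate 2, and 2 rose without control replicate 3. The median of that list was -0.21, and 0.01 without control replicate 3. Trp53 itself had 107, 121 and 115 CPM in libraries labelled Klf5-KO, against 138, 149 and 143 CPM in controls (log2 fold change -0.33, SE 0.08, edgeR adjusted p = 0.0191).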

How the data were processed

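Members and lists were chosen with earlier results of these data known. The deposited values are raw counts of reads for each gene. Per the file headers, the authors made them with featureCounts 1.4.3-p1, reverse-stranded, using the GENCODE annotation vM16. The submitters' processing notes name STAR 2.5.2a, DESeq2 1.18.1 and the build mm10. Per the labels' protocols, ribosomal RNA was removed from total RNA before stranded libraries were made. IDs were given symbols from GENCODE vM21 (53274 of 53379 matched).

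Counts of all genes were fitted with edgeR 4.0.16 (filterByExpr, TMM factors, quasi-likelihood F test on group, Benjamini-Hochberg over 19339 tested genes, threshold 0.05) in R 4.3.3, and members were read out of that fit; 84 of 86 members passed the filter. Each SE was obtained by dividing the log2 fold change by the root of its F statistic. The biological coefficient of variation was 17.0%. The floor set by 3 counts was 0.0389 to 0.0484 CPM across libraries (counting error only). No 2 libraries agreed within sampling noise. TPM was computed from counts and exon lengths. Promoter and start sequences are from RefSeq (GRCm38.p6), with an entry for 57 of 77 canonical genes. The analysis was tested on simulated data. Alternatives were other scalings and filters, DESeq2 1.42.0, limma 3.58.1 (voom), robust dispersion, a replicate block, a length and GC correction, a threshold of 0.01 and leaving out each library; sex as a covariate, leaving out 2 libraries together, principal transcript lengths and the ratio without Rpl3 and Rpl4 were added after seeing the data.

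Genes named are Klf5, the called members, the 6 highest and lowest fold changes, the 3 highest levels per length in each subunit, paralogs and their partners, Fau, Rack1, the P-stalk, Rpl5, Rpl11, Rps19bp1 and up to 3 called genes of each other list with the smallest adjusted p; further genes, among them Rps27a, Rps3, Rpl8, Rpl7l1 and other called genes of the short lists, were named after their values were seen. A few genes that the rule names are not reported here.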

Additional observations from a re-analysis of the deposited data

How the results depend on the processing

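The count of lower canonical members, 4 as reported, was 11 with DESeq2 and 12 with the length and GC correction. Of all tested genes 13.6% and 13.9% were lower in those settings, so the members' share was no longer below that of all genes. The count was 1 at an adjusted p of 0.01, 2 with sex as a covariate and 1 without control replicate 3 and Klf5-KO replicate 2 together. Leaving out 1 library gave 0 to 4, and the other scalings, filters and tools gave 3 to 6. No alternative called a canonical member higher. The cause of these changes was not tested. A stricter threshold can only lower a count, and leaving out a library leaves fewer to compare. Without control replicate 3, however, 13.4% of all tested genes were lower and 13.8% higher, against 12.5% and 13.3% with all 6 libraries. The median log2 fold change of the members stayed negative throughout, at -0.06 to -0.17 on leaving out 1 library. On leaving out 1 library the share of counts changed by -8.42 to -14.4% and the large to small ratio by -2.65 to -4.49%; without Rpl3 and Rpl4 the ratio changed by -1.1%. With principal transcript lengths the median member stood at 1382 TPM in libraries labelled Klf5-KO and 1576 TPM in controls, again without TMM factors. Scalings moved the median of all genes by less than 0.1 (log2).

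With the replicate number as a block 4 canonical members were again lower, Rpl5 taking the place of Rps4x, and their median was -0.12. Same-numbered libraries did not deviate together (correlations -0.01, 0.01 and -0.04), so the numbers were not read as pairs.

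With 3 libraries a group and a median SE of 0.11, differences near the median shift of -0.12 could not be resolved for single genes, which limits how the 73 uncalled members can be read: they were not shown to be equal. Counts of Rpl24, Rpl13a and Rpl36al are limited by exons shared with other genes.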
